A study of Mus musculus with 4 samples.

Results

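The mitochondrial respiratory chain was followed in spleen RNA from 2 Nrf2 knockout and 2 wild-type samples. Its members were all non-control probe sets whose single platform gene symbol begins with Ndufa, Ndufb, Ndufc, Ndufs, Ndufv, Sdha to Sdhd, Uqcr, Cox4 to Cox8 or Atp5, together with Cyc1 and Cycs. This rule uses names only and no measured value. It gave 75 of the 8251 genes that have a probe set with a single symbol, read by 103 of the 12422 non-control probe sets, and 10 further probe sets that carry several symbols were left out. Complex I held 42 probe sets of 31 genes, complex II 6 of 6, complex III 9 of 8, complex IV 23 of 15 and complex V 22 of 14. The soluble carrier cytochrome c (Cycs) had 1 probe set. The rule also takes in the assembly factors Ndufaf1, Ndufaf4, Sdhaf1 and Sdhaf2, which are not structural subunits.

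All samples came from female mice aged 5 months. Per the labels, nrf2 -/- animals of C57B6/129SVJ background were mated to nrf2 +/+ animals of C57B6/SJL background, and the heterozygous offspring were interbred. The knockout group was nrf2 -/- and the wild-type group was nrf2 +/+ littermates, all kept on the same chow and untreated as far as the labels say. The deletion is present in all cells of the animal, not in 1 cell type. The labels do not say whether a sample is 1 spleen or a pool, so a p-value here covers the variation among these samples only, part or all of which may be technical.

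Each sample was read on 1 array that gives a linear fluorescence intensity for each probe set. An intensity can be compared between arrays for 1 probe set and not between probe sets. Differences are given as log2 knockout minus wild type with a standard error (SE), after values below an intensity of 185.5, the pooled 25th percentile, were raised to it. Of the members, 78 probe sets of 67 genes were bright enough to be tested.

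The respiratory chain of the inner mitochondrial membrane carries electrons from NADH through complex I, and from succinate through complex II, to ubiquinone. Complex III passes them by way of cytochrome c to complex IV, which reduces oxygen to water. Complexes I, III and IV pump protons, and complex V (ATP synthase) uses the gradient to make ATP. The genes measured here lie in the nucleus, and many are driven by nuclear respiratory factor 1 and by GABP, which is also called nuclear respiratory factor 2. That name is close to Nrf2, but Nrf2 is a different protein: the product of Nfe2l2, an activator of antioxidant genes that binds the antioxidant response element.

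The bases upstream of the start of Uqcr11, Atp5e, Atp5o and Cox7a2l are shown because these members had the largest knockout decreases in fitted level of all tested members (log2 differences of -1.26, -0.92, -0.82 and -0.81). The windows are the 250 bases before the transcript start in RefSeq on GRCm38.p6, each read 5′ to 3′ on the minus strand, which is the sense strand of these genes. They lie at chr10:80406822-80407071 (Uqcr11), chr2:174464102-174464351 (Atp5e), chr16:91931631-91931880 (Atp5o) and chr17:83514334-83514583 (Cox7a2l). Capitals mark the GABP letters CCGGAAG or their reverse complement in Uqcr11 and Atp5e, and the antioxidant response element letters TGACNNNGC in Atp5o. No searched motif fell in the Cox7a2l window shown. Atp5o also had a nuclear respiratory factor 1 match (GCGCGTGCGC, opposite strand) at bases 10 to 19 after the start, past the window shown.
Uqcr11: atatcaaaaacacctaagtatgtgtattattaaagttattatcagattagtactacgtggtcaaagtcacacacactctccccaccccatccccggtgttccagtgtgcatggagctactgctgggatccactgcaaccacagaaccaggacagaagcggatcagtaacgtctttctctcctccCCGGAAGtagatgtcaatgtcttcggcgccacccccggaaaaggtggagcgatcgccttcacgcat
Atp5e: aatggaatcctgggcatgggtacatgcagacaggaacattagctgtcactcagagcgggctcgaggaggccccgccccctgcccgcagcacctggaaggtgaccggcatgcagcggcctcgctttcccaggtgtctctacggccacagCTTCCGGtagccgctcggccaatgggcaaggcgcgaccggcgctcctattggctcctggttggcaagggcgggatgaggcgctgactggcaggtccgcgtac
Atp5o: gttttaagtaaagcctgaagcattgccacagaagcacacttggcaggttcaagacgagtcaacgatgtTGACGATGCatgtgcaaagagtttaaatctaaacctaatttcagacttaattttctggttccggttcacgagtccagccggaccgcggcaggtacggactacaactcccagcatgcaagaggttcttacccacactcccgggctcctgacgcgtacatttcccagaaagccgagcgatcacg
Cox7a2l: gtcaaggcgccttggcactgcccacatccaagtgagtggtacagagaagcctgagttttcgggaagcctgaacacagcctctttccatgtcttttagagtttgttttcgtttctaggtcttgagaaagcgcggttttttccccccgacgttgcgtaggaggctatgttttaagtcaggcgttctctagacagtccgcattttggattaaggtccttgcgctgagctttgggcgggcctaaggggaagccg

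RefSeq promoter windows of 300 bases (250 before to 50 after the start) were matched to 61 of the 75 member genes. On either strand, the nuclear respiratory factor 1 letters (GCGCA, any base, GCGC) occurred in 12 of these (19.7%), against 5.19% of all 27025 genes in the table. The GABP letters CCGGAAG occurred in 18 (29.5%, against 9.93%), and the YY1 letters (AAGATG followed directly by GCGGC) in 2 (3.28%, against 0.755%). The antioxidant response element letters TGACNNNGC occurred in 9 members (14.8%), close to the 14.0% of all genes. These 9 were Atp5o, Cox5b, Ndufa1, Ndufa7, Ndufa9, Ndufa10, Ndufaf4, Ndufv2 and Sdhaf2. None of the 4 motifs contains another, but matches of different motifs may lie over the same bases. A match is a description of letters and not of binding.

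Nfe2l2, the targeted gene, had an intensity of 202 and 178.6 in the knockout arrays and 3537 and 6321 in the wild-type arrays. It was 24.4-fold lower in the knockout (limma, log2 difference -4.61, SE 0.47, adjusted p = 0.01995), as the labels say. With wild-type replicate 1 left out the adjusted p was 0.1425, and with wild-type replicate 2 left out it was 0.05831. The arrays had nearly equal 2% trimmed means, from 2501.5 to 2502.0, but wild-type replicate 1 stood apart from the other arrays. Its untrimmed sum over all non-control probe sets was 56500000, against 44860000 to 46460000 on the others, while its median was the lowest (798.5). The part of this spread in the values of bright members was not tested. Across all tested probe sets its log2 values correlated with those of the other arrays at r = 0.849 to 0.851, whereas the other pairs reached 0.938 to 0.947. Across the 78 tested members the same values were 0.923 to 0.939 and 0.970 to 0.978 (probe sets are not independent replicates, and these r values describe the arrays). The ratio of the 3′ to the 5′ Gapdh probe set, a measure of RNA integrity and labelling, was 25.5 and 34.8 on the knockout arrays, but 88.3 on wild-type replicate 1 and 8.07 on wild-type replicate 2. The same ratio for actin had another order, at 19.3 and 16.1 on the knockout arrays and 14.4 and 8.86 on wild-type replicates 1 and 2. Of the member genes, 5 lay on chromosome 2, which also holds Nfe2l2, and 1 of these (Ndufs3) lay within 20 Mb of it.

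No respiratory chain probe set passed an adjusted p of 0.05 in the comparison of knockout with wild type. The limma test passed 0.0537% of all 7453 tested probe sets (4 in number), and the adjusted p of the members ranged from 0.992 to 0.999. At an unadjusted p of 0.05, 1 member passed (Uqcr11, lower in the knockout), against 1.74% of all tested probe sets in both directions, 0.966% in the lower and 0.778% in the higher direction. Only 4 arrays were compared, which limits the precision: at the median SE of 0.46, a log2 difference of 1.06 was needed for an unadjusted p of 0.05. All tested members but Uqcr11 had fitted differences smaller than this. The SE of limma draws on the spread of all tested probe sets, so a member whose arrays lay close together within each group could still miss the threshold.

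The fitted differences of the members lay mostly below 0. They were negative for 61 of the 78 tested probe sets (78.2%, against 46.3% of all tested probe sets) and positive for 17 (53.7% of all), and their median was -0.32 against 0.04 for all. In 16 members both knockout arrays lay below both wild-type arrays (12.2% of all tested probe sets did), and in 2 members both lay above (14.3% of all). With the 25 dim members included at the floor, the median over all 103 was -0.16. In spleen as a whole, fewer cells of a type rich in these transcripts and less of the RNA in each cell cannot be told apart.

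**Figure D1:**
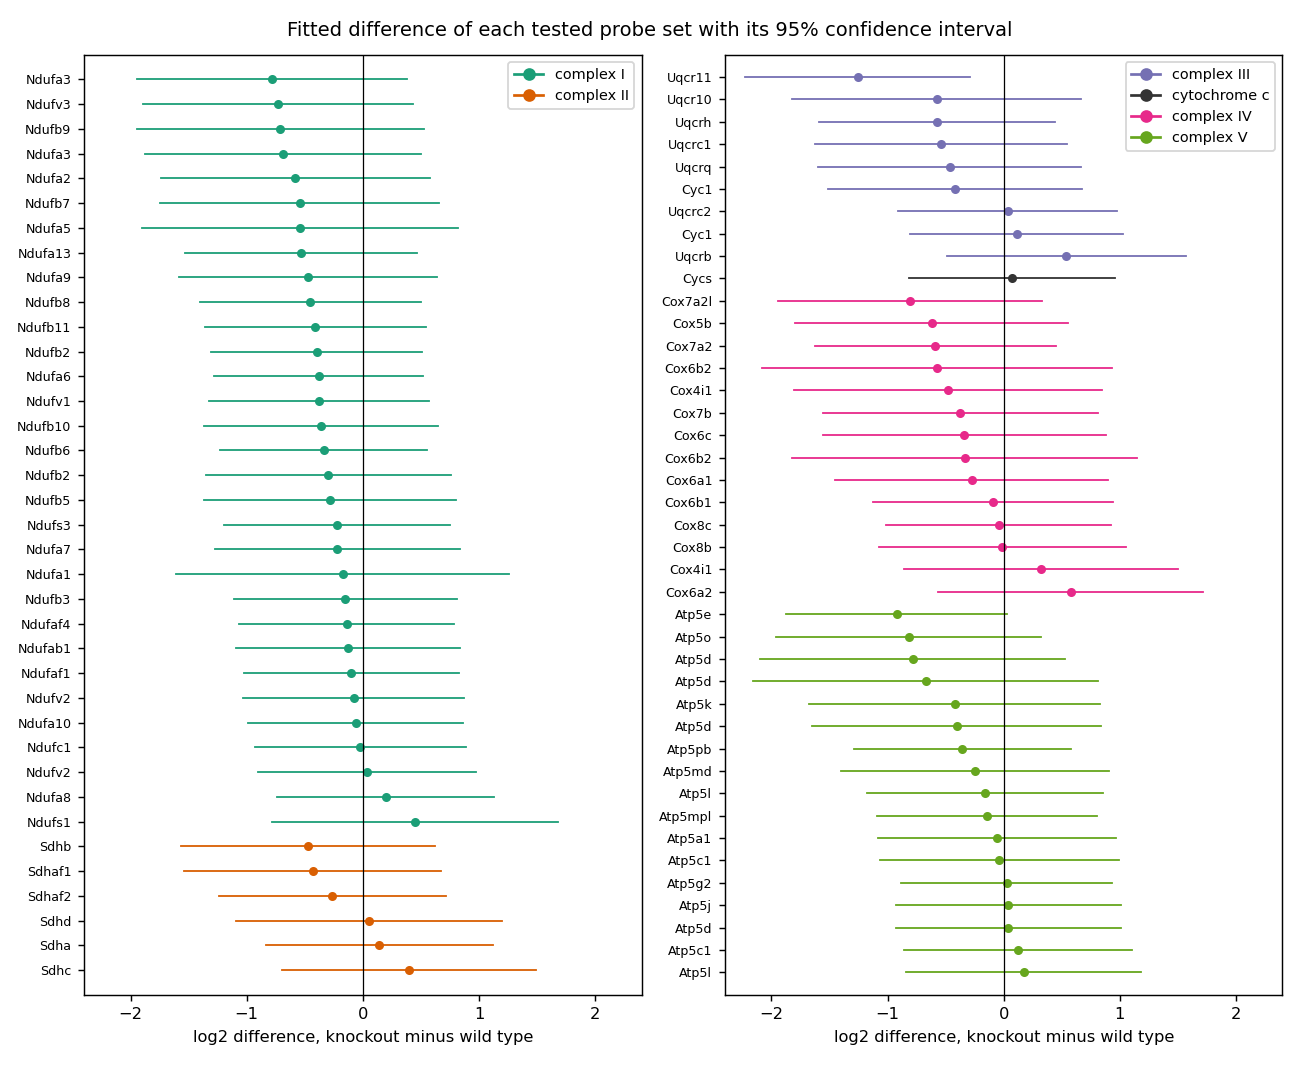
The plot gives the fitted log2 difference (horizontal axis, knockout minus wild type) of each of the 78 tested probe sets, 1 line per probe set, with points coloured by complex and lines for the 95% confidence interval of the limma fit. Most points lie left of 0, and only the interval of Uqcr11, from -2.23 to -0.29, leaves out 0.

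The excess of negative differences was absent without wild-type replicate 1. The values of that array were the highest of the 4 arrays in 52 of the 78 tested members (66.7%, against 37.3% of all tested probe sets), and the median member was higher there than in wild-type replicate 2 by 0.54 on the log2 scale (-0.01 for all). These shares over all include dimmer probe sets, and probe sets as bright as the members were not compared apart. Against wild-type replicate 2 alone, the knockout mean was lower in 40 members and higher in 38, with a median of -0.01 (it was higher in 51% of all tested probe sets). Against wild-type replicate 1 alone it was lower in 62 and higher in 16, with a median of -0.60 (it was higher in 50.6% of all). The direction of the group difference thus rested on 1 wild-type array.

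**Figure D2:**
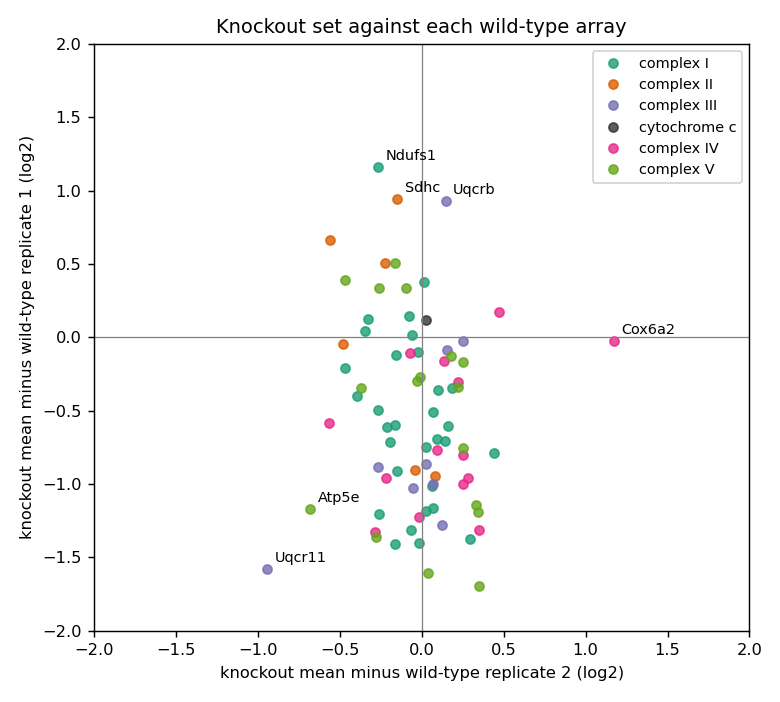
Each point is 1 of the 78 tested probe sets, coloured by complex, with the log2 difference of the knockout mean from wild-type replicate 2 on the horizontal axis and from wild-type replicate 1 on the vertical axis (both axes use the same knockout arrays). The points are centred near 0 along the horizontal axis (median -0.01) and below 0 along the vertical axis (median -0.60), with Uqcr11 and Atp5e to the lower left.

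Complex I, the NADH dehydrogenase, had the most uniform direction. Of its 31 tested probe sets, 28 had a negative difference and 3 a positive one, with a median of -0.34, and both knockout arrays lay below both wild-type arrays in 9 and above in none (12.2% and 14.3% of all tested probe sets). None of the 31 passed the limma test, with a smallest unadjusted p of 0.158 (Ndufa3). Against wild-type replicate 2 alone the split was 18 lower and 13 higher, with a median of -0.06.

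The subunits of complex I fall into a catalytic core, which holds the flavin and the iron-sulphur clusters, and accessory subunits around it. This grouping was made after the values had been seen. The core probe sets (Ndufs1, Ndufs3, Ndufv1 and Ndufv2, 5 in all) had a median difference of -0.08, and 3 of the 5 were negative. The 24 accessory probe sets had a median of -0.39, and 23 of them were negative. The difference between core and accessory subunits was not tested.

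Among the core subunits, Ndufv1, which carries the flavin and the NADH site, read 10936 and 11425 in the knockout arrays and 16891 and 12509.6 in wild-type replicates 1 and 2. Both knockout values lay below both wild-type values (log2 difference -0.38, SE 0.41). Ndufs1, the largest iron-sulphur subunit, read 4868 and 6401 in the knockout arrays against 2498 and 6709 in the wild-type arrays. Only wild-type replicate 1 was low, and the fitted difference of 0.45 (SE 0.53) had the largest positive value in the complex. Ndufs3 read 11856 and 11570.1 against 16701 and 11158, with overlapping groups and a difference of -0.22 (SE 0.42). The 2 tested probe sets of Ndufv2, another flavoprotein-module subunit, did not share a sign. One read 1818 and 2325 against 2612 and 1807 (-0.08, SE 0.41), and the other 19538 and 17942 against 16927 and 19763 (0.03, SE 0.41).

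Ndufa3, a small accessory subunit, had 2 tested probe sets with the same sign, both marked as matching several transcripts. The first read 1047 and 1092 in the knockout arrays and 2833 and 1195 in the wild-type arrays (log2 difference -0.78, SE 0.50). The second read 13290.4 and 15694 against 35831 and 15085 (difference -0.69, SE 0.51). In both, wild-type replicate 1 was far above the other 3 arrays, which lay close together. The same picture held for Ndufb9, at 13457 and 15196 against 37820.2 and 14474 (-0.71, SE 0.53), and for Ndufa2, at 11144 and 10276 against 24330.1 and 10526 (-0.58, SE 0.50).

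Ndufv3, a small subunit of the NADH-oxidising module, read 3132 and 1657 in the knockout arrays and 5245 and 2732 in the wild-type arrays (log2 difference -0.73, SE 0.50). Its groups overlapped, because knockout replicate 1 lay above wild-type replicate 2. Ndufa13, also known as Grim19, read 4039 and 3351 against 6918 and 4089 (-0.53, SE 0.43), and there both knockout values were below both wild-type values by a narrow margin. Ndufa5 had the widest log2 gap between the wild-type arrays in complex I, at 58259 and 18338, against 20707 and 24397 in the knockout arrays (-0.54, SE 0.59). Both tested probe sets of Ndufb2 were negative. One, marked as matching several transcripts, read 18813 and 22975 against 33550.1 and 19511 (-0.30, SE 0.46). The other, of a type with a relaxed probe choice, read 9378 and 9105 against 12205 and 12163 (-0.40, SE 0.39). It had close values within each group and no overlap between them. Ndufa8 was the only tested accessory subunit with a positive difference, at 3067 and 2265 against 2030.3 and 2604 (0.20, SE 0.40).

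The assembly factors of complex I had small differences. Ndufaf1 had a difference of -0.10 (SE 0.40) and Ndufaf4 of -0.14 (SE 0.40). Ndufs4, an iron-sulphur module subunit whose loss causes complex I deficiency, was too dim to be tested. It read 251 and 154 in the knockout arrays and 353 and 589 in the wild-type arrays, so both knockout values lay below both wild-type values near the floor.

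**Figure D3:**
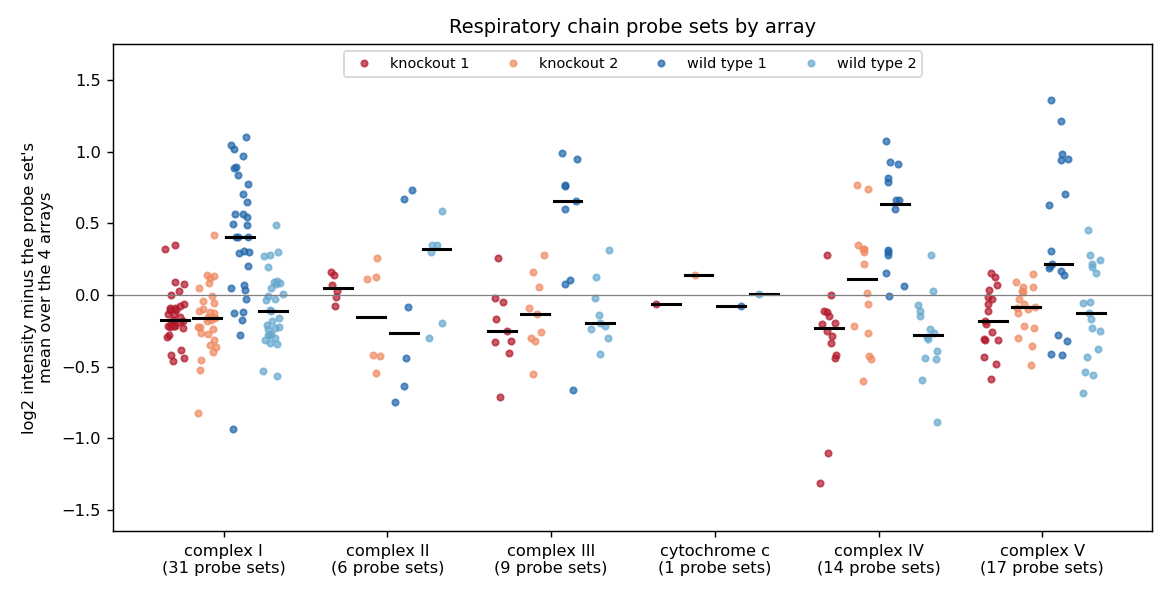
Each point is a tested probe set in 1 array, given as its log2 intensity minus its mean over the 4 arrays (vertical axis), grouped by complex and array, and bars are medians. Wild-type replicate 1 lies above the other arrays in complexes I, III, IV and V, with medians of 0.41, 0.66, 0.63 and 0.21, and below them in complex II, with a median of -0.26.

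Complex II, succinate dehydrogenase, is the link between the chain and the tricarboxylic acid (TCA) cycle. Its directions were mixed: 3 of its 6 probe sets were negative and 3 positive, with a median of -0.11, and the groups overlapped in all 6. For the 4 structural subunits alone the median was 0.10. The median log2 difference of wild-type replicate 1 from wild-type replicate 2 was -0.59 here, whereas it was positive in the other 4 complexes. No probe set passed the limma test, and the smallest unadjusted p was 0.344 (Sdhb).

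The catalytic flavin subunit Sdha read 3080.0 and 3262 in the knockout arrays and 2226 and 3702 in the wild-type arrays (log2 difference 0.14, SE 0.42). The membrane anchor Sdhc read 6290.0 and 6819 against 3402 and 7264 (0.40, SE 0.47), and the other anchor, Sdhd, 6748 and 7772 against 4578 and 10657 (0.05, SE 0.50). In these 3 genes wild-type replicate 1 was the lowest of the 4 arrays and wild-type replicate 2 the highest. The iron-sulphur subunit Sdhb had the other order, at 9456 and 6162 against 14318 and 7867 (-0.48, SE 0.47), with wild-type replicate 1 the highest. The assembly factor Sdhaf1 read 8901 and 6745 against 14950.1 and 7312 (-0.43, SE 0.48). Sdhaf2, which helps to attach the flavin to Sdha, read 2170.1 and 1450.4 against 1830.3 and 2479 (-0.26, SE 0.42), and the groups overlapped in both genes. The probe sets of Sdhb and Sdhaf1, in which wild-type replicate 1 was the highest array, are marked as matching several transcripts. Without them the median of complex II was 0.0975.

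Complex III, the cytochrome bc1 complex, held the member with the lowest p. Of its 9 probe sets 6 were negative and 3 positive, with a median of -0.47, the lowest of the complexes. Against wild-type replicate 2 alone the median was 0.07, with 3 lower and 6 higher. Both knockout arrays lay below both wild-type arrays in 2 probe sets (Uqcr11 and Uqcrh) and above in 1 (Uqcrb). Over all tested probe sets these shares were 12.2% and 14.3%.

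Uqcr11, a small membrane subunit of complex III, read 3907 and 4361 in the knockout arrays and 12311 and 7931 in wild-type replicates 1 and 2. The knockout values lay close together and below both wild-type values. Its level was 2.39-fold lower in the knockout (log2 difference -1.26, SE 0.42, 95% interval -2.23 to -0.29), with an unadjusted p of 0.0172 and an adjusted p of 0.992 in limma. Without wild-type replicate 1 the difference was -0.94. It was the only member that stayed at an unadjusted p under 0.05 in every comparison with both replicates of each group, under all scalings, floors and filters tried.

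Uqcrb, a subunit near the ubiquinone site, had the opposite pattern. It read 19013 and 19259.8 in the knockout arrays and 10042 and 17275 in the wild-type arrays, so both knockout values lay above both wild-type values (log2 difference 0.54, SE 0.44). Its probe set is of a type that can match more than 1 transcript. Uqcrh, the hinge protein that docks cytochrome c, read 26169.5 and 24845 against 47071 and 30659 (-0.58, SE 0.44).

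In 4 more complex III probe sets wild-type replicate 1 was high and the other 3 arrays lay close together. Uqcrc1, a core protein, read 9635 and 11678 in the knockout arrays and 21659 and 10986 in the wild-type arrays (log2 difference -0.54, SE 0.47). Uqcr10 read 21390.0 and 22360.0 against 53007 and 20099 (-0.58, SE 0.54), and Uqcrq 24001 and 21836 against 45765 and 21859 (-0.47, SE 0.49). For Cyc1, the cytochrome c1 haem protein, 1 probe set read 24502 and 28779 against 48400.4 and 26060.2 (-0.42, SE 0.47). The other probe set of Cyc1 read 7208 and 8335 against 7872 and 6520.2 (0.11, SE 0.40). Uqcrc2, the second core protein, was nearly level, at 19889 and 20931 against 21697 and 18319 (0.03, SE 0.41).

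Cytochrome c, the mobile carrier between complexes III and IV, read 2365 and 2726 in the knockout arrays and 2343 and 2491 in the wild-type arrays. All 4 arrays were close together (log2 difference 0.07, SE 0.38, 95% interval -0.81 to 0.96), and the sign turned with cyclic loess scaling.

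**Figure D4:**
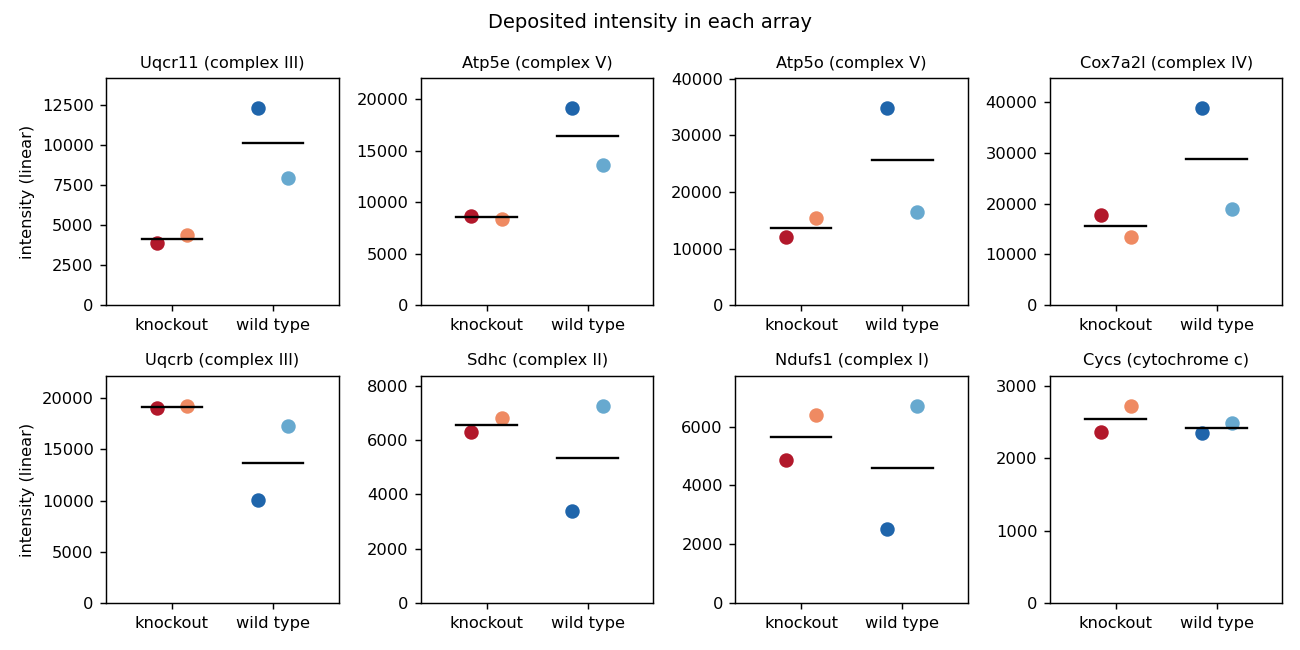
Deposited linear intensity (vertical axis, from 0) of 8 member genes in each array, with replicate 1 to the left and replicate 2 to the right in each group and a bar at the group mean. Uqcr11, Atp5e, Atp5o and Cox7a2l in the upper row have both knockout arrays below both wild-type arrays, whereas in Uqcrb, Sdhc and Ndufs1 in the lower row wild-type replicate 1 is the lowest array, and Cycs is nearly level.

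Complex IV, cytochrome c oxidase, had 14 tested probe sets of 12 genes. Of these 12 were negative and 2 positive, with a median of -0.34, and wild-type replicate 1 was above wild-type replicate 2 in all 14 (49.8% of all tested probe sets), by a median of 0.95. Against wild-type replicate 2 alone 5 were lower and 9 higher, with a median of 0.18. The median was also 0.03 without knockout replicate 1, and -0.22 after quantile normalization. None of the 14 passed the limma test, and the smallest unadjusted p was 0.139 (Cox7a2l).

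Cox7a2l helps to join complexes III and IV into supercomplexes. It read 17766.5 and 13491 in the knockout arrays and 38867 and 18907 in the wild-type arrays, with both knockout values below both wild-type values (log2 difference -0.81, SE 0.49). Its paralogue Cox7a2, the widely expressed form of subunit 7a, read 17047 and 13849.8 against 29832 and 17902 (-0.59, SE 0.45), again without overlap. Cox5b, which binds zinc, read 17925 and 15234.5 against 38567 and 16745 (-0.62, SE 0.51), and its groups overlapped. Without wild-type replicate 1 the difference of Cox7a2l was -0.29.

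The other widely expressed subunits did not all have the same order of arrays. Cox6a1, Cox6c and Cox7b had differences of -0.27 (SE 0.51), -0.34 (SE 0.53) and -0.37 (SE 0.51), with wild-type replicate 1 the highest of the 4 arrays in each. Cox6b1 read 879.9 and 1522 in the knockout arrays and 1246 and 1217 in the wild-type arrays (-0.090, SE 0.45), with knockout replicate 2 the highest and the wild-type arrays level. For Cox4i1, the widely expressed form of subunit 4, the probe sets had opposite signs. One read 2532 and 3245 against 7133 and 2248 (-0.48, SE 0.57), and the other, much nearer to the floor, 492 and 612 against 487 and 396 (0.32, SE 0.51).

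Several complex IV subunits have forms that are known from heart, skeletal muscle or testis. Cox6a2, the heart and skeletal muscle form of subunit 6a, read 1690.2 and 1720.5 in the knockout arrays and 1735 and 755 in the wild-type arrays. Only wild-type replicate 2 was low, and the difference of 0.58 (SE 0.49) was the largest positive value among the 78 members. Cox8b, another muscle form, read 727 and 1146 against 1021 and 829 in its tested probe set (-0.01, SE 0.46). Cox8c, a testis form, read 3121 and 4317 against 4526 and 3154 (-0.04, SE 0.42), and in both the groups overlapped. Cox6b2, a testis form, had 2 tested probe sets: 1 read 479 and 1981.5 against 1462 and 1439.5, and the other 1727 and 6307.5 against 5628 and 3089.7. Both were lowest in knockout replicate 1 (differences -0.57 and -0.34, SE 0.65 and 0.64). Cox7a1, the muscle form of subunit 7a, was not tested: only wild-type replicate 1, at 312, was above the floor.

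Markers of muscle and brown fat were read on the same arrays. Of 17 muscle and 6 brown fat probe sets, 3 and 1 passed the filter on low values. Both probe sets of Ucp1, the brown fat uncoupling protein, read below the floor in all 4 arrays. The 3 muscle probe sets were those of Actc1, at 1098 and 1729.5 in the knockout and 1405 and 1443 in the wild-type arrays, of Myh4, at 798 and 554.5 against 1381 and 608, and of Tnnc2. Those of Actc1 and Tnnc2 are marked as matching several transcripts, and that of Myh4 is of a type with a relaxed probe choice. The other probe set of each of these 3 genes read below the floor in all 4 arrays. Tnnc2, a fast muscle troponin, read 597 and 631 against 837 and 125.5, with wild-type replicate 2 alone low, as for Cox6a2. The summed muscle level was 4992 and 5362 in the knockout and 6753 and 4228 in the wild-type arrays. Their part in the values of the muscle isoforms was not tested. Cox5a and Cox8a, both needed for the enzyme, were too dim to be tested, and the brighter Cox5a probe set read 441 and 387 against 223 and 240.2, with both knockout values above both wild-type values.

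Complex V, ATP synthase, had 17 tested probe sets of 12 genes. Of these 12 were negative and 5 positive, with a median of -0.16. Both knockout arrays lay below both wild-type arrays in 3 (Atp5e, Atp5o and Atp5pb) and above in none (12.2% and 14.3% of all tested probe sets). Against wild-type replicate 2 alone the split was 9 lower and 8 higher, with a median of -0.01. The median was -0.08 after quantile normalization and -0.10 after cyclic loess. None of the 17 passed the limma test after adjustment.

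Atp5e, the small epsilon subunit of the rotating central stalk, had the second lowest p of all members. It read 8692 and 8353.5 in the knockout arrays and 19144 and 13641 in the wild-type arrays, with both knockout values below both wild-type values. Its level was 1.90-fold lower in the knockout (log2 difference -0.92, SE 0.41, 95% interval -1.88 to 0.03), with an unadjusted p of 0.0561 and an adjusted p of 0.992 in limma. Without wild-type replicate 1 the difference was -0.68. Its probe set is of a type with fewer unique probes than usual.

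Atp5o, the subunit that ties the peripheral stalk to the catalytic head, read 11986 and 15371 in the knockout arrays and 34794.5 and 16496 in the wild-type arrays. Its groups did not overlap, but knockout replicate 2 and wild-type replicate 2 lay close together (log2 difference -0.82, SE 0.49). Without wild-type replicate 1 the difference was -0.28. Atp5pb, the b subunit of the peripheral stalk, read 977 and 1092 against 1310.0 and 1338 (-0.36, SE 0.40), and there the wild-type arrays were close together too.

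The other tested subunits of the F1 part, which is the catalytic head with the central stalk, did not share a direction. Atp5a1, the alpha subunit, read 42176 and 47283 in the knockout arrays and 56466 and 38347 in the wild-type arrays (log2 difference -0.06, SE 0.44), and the sign turned with quantile and cyclic loess scaling. Of the 2 probe sets of Atp5c1, the gamma subunit, one read 7953 and 8459 against 6241.5 and 11342 (-0.04, SE 0.45). The other read 29386 and 30636 against 23731 and 32061 (0.12, SE 0.42), and wild-type replicate 1 was the lowest array in both.

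The 4 tested probe sets of Atp5d, the delta subunit, ran from -0.79 to 0.04. The lowest difference (-0.79, SE 0.57) came from 5081.5 and 5775 against 16526 and 5275. The next (-0.67, SE 0.64) came from 4779 and 4626.5 against 15215 and 3685, and the third (-0.41, SE 0.54) from 4426 and 5150.4 against 10561 and 3789. The 3 with a negative value can match more than 1 transcript and were more than 2 times as high in wild-type replicate 1 as in the other arrays. The fourth read 1255 and 1084 against 1312 and 981 (0.04, SE 0.42), with overlapping groups.

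In the membrane rotor and the peripheral stalk, Atp5j read 9577 and 8979 against 7326 and 11118 (log2 difference 0.04, SE 0.42), with wild-type replicate 1 the lowest and wild-type replicate 2 the highest array. Atp5k, a small membrane subunit that helps to form dimers, read 2029 and 2009 against 4613 and 1590.2 (-0.42, SE 0.54), with wild-type replicate 1 alone high. The 2 probe sets of Atp5l, a small membrane subunit, had opposite signs. One read 24051 and 21852 against 16157 and 25612.5 (0.17, SE 0.44), and the other 761 and 1043 against 1093 and 909 (-0.16, SE 0.44). Atp5g2, a gene for the rotor ring subunit c, gave 0.03 (SE 0.39), while Atp5g1, another gene for the same subunit, was too dim to be tested.

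Not every member was high in wild-type replicate 1. That array was the lowest of the 4 in 13 tested members (39.2% of all tested probe sets had it lowest): Ndufa8, Ndufaf1, Ndufs1, Ndufv2, Sdha, Sdhc, Sdhd, Uqcrb, Cycs, Atp5j, Atp5l and both probe sets of Atp5c1. Of the 9 genes with several tested probe sets, 3 (Ndufa3, Ndufb2 and Cox6b2) had the same sign in all of them. Every tested probe set of these 3 genes is of a type that matches several transcripts or has a relaxed or incomplete probe choice. Their shared sign may therefore not be independent. The 25 untested probe sets had values from 4.5 to 589, with 10 below the floor in all 4 arrays. They left 8 genes with no tested probe set: Ndufa12, Ndufc2, Ndufs4, Cox5a, Cox7a1, Cox8a, Atp5g1 and Atp5j2.

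Other nuclear genes of the mitochondrion were set beside the chain. The mitochondrial ribosome, which translates the mitochondrially coded subunits of complexes I, III, IV and V, was mostly negative. Of its 66 tested probe sets 50 were negative and 16 positive (46.3% and 53.7% of all tested probe sets were), with a median of -0.34. Wild-type replicate 1 was the highest array in 45 of the 66 (68.2%, against 37.3% of all). Against wild-type replicate 2 alone the median was -0.04. In this list 3 probe sets reached an unadjusted p under 0.05, all lower in the knockout (0.966% of all tested probe sets were) and none after adjustment. Mrps25 read 499 and 665 against 1305 and 1193.5, Mrpl54 913.5 and 630.3 against 2729 and 1188, and Mrps11 776 and 744 against 1770.6 and 1278. In all 3 probe sets both knockout arrays lay below both wild-type arrays. The other tested probe set of Mrps25, which was brighter, read 5011 and 7077 against 15176 and 4712 (log2 difference -0.51, SE 0.59). Its groups overlapped.

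The TCA cycle, which supplies NADH and succinate to the chain, was mostly positive. Of its 17 tested probe sets 12 were positive and 5 negative (53.7% and 46.3% of all tested probe sets were), with a median of 0.21. Wild-type replicate 1 was the lowest array in 11 (39.2% of all). Against wild-type replicate 2 alone the median was -0.11, with 7 higher and 10 lower. Pdha1, the E1 subunit of pyruvate dehydrogenase, read 6659 and 6822 in the knockout arrays and 1406 and 7598.5 in the wild-type arrays, so a single wild-type array was low. Idh3g, a regulatory subunit of isocitrate dehydrogenase, had the smallest p of the list and the opposite sign, at 8068.5 and 10323 against 18378 and 14586 (log2 difference -0.84, SE 0.41).

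Regulators of respiratory genes had a median of 0.10 over 12 tested probe sets, 8 positive and 4 negative. For this and the next lists, 53.7% of all tested probe sets were positive and 46.3% negative. The GABP subunit Gabpb1 read 845 and 1005 against 332 and 904 (log2 difference 0.75, SE 0.58), with wild-type replicate 1 the lowest. Assembly and copper or haem delivery factors had a median of 0.0004 (8 tested, 4 positive and 4 negative), with Uqcc2, a complex III assembly factor, at 3135 and 2803 against 8627 and 3454 (-0.88, SE 0.51). Carriers and import proteins had a median of 0.07 (25 tested, 15 positive and 10 negative), and the phosphate carrier Slc25a3 read 462 and 304.5 against 769.7 and 722 (-0.99, SE 0.51). Glycolysis had 13 negative and 5 positive of 18, with a median of -0.19. There too wild-type replicate 1 was the highest array in 10 of the 18 (55.6%, against 37.3% of all tested probe sets). Against wild-type replicate 2 alone the median of glycolysis was -0.003. The glucose transporter Slc2a3, of the glycolysis list, was the only member of these lists, beside the ribosomal ones, with an unadjusted p under 0.05 in limma. It read 1652.5 and 2166 against 708 and 1195 (1.04, SE 0.45), higher in the knockout and not past adjustment.

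**Figure D5:**
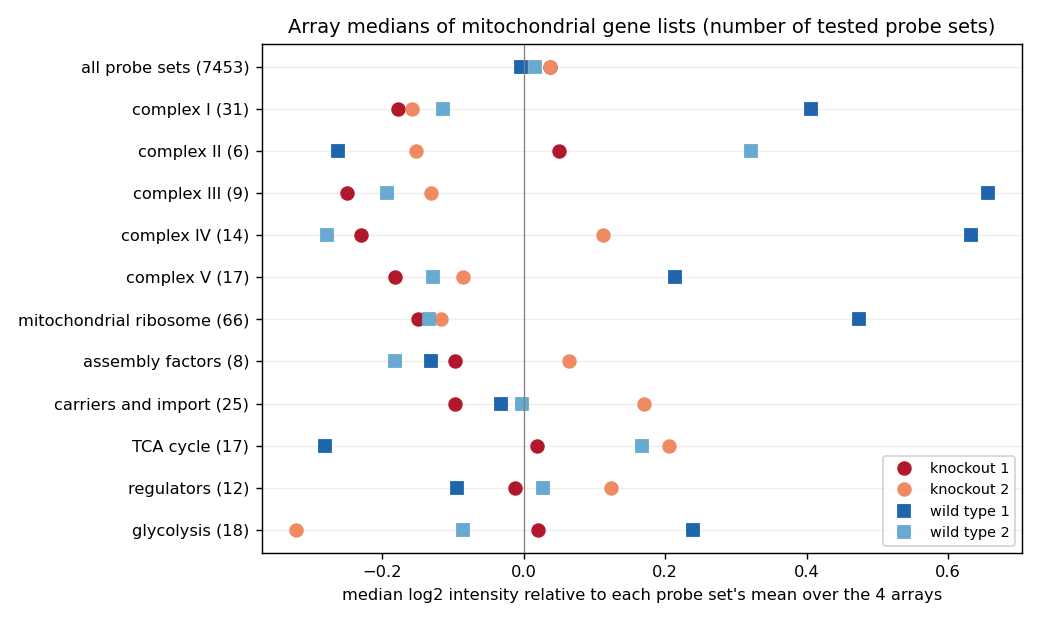
The median over each list's tested probe sets of the log2 intensity relative to the probe set's own mean over the 4 arrays (horizontal axis), 1 symbol per array. Wild-type replicate 1 is furthest to the right for complexes I, III, IV and V, the mitochondrial ribosome (0.47) and glycolysis (0.24). It is furthest to the left for complex II, the TCA cycle (-0.28) and the regulators (-0.09), whereas the medians of all probe sets stay near 0 in every array.

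Markers of other cells also differed between these arrays. The summed level of 12 exocrine pancreas probe sets was 11400 and 12560 in the knockout arrays and 91160 and 23690 in the wild-type arrays, and Prss2, a pancreatic trypsinogen, read 653 and 587 against 28519.5 and 5090.3. Of the 10 tested pancreas probe sets 8 had both knockout arrays below both wild-type arrays (12.2% of all tested probe sets did), and wild-type replicate 1 was the highest in 9 (37.3% of all). The 9 tested B cell and 9 tested T cell probe sets each had 8 negative differences (46.3% of all tested probe sets), with medians of -0.48 and -0.26. Wild-type replicate 1 was highest in 5 and 7 of them (37.3% of all). Neutrophil markers summed to 505600 and 569700 in the knockout arrays and 709800 and 174000 in the wild-type arrays. All 13 tested had a positive difference (53.7% of all tested probe sets did). Wild-type replicate 2 was the lowest array in 12 of the 13 (1584 of all 7453), and wild-type replicate 1 was the highest in 3 although its sum was the largest. Against wild-type replicate 1 alone the knockout mean was higher in 9 and lower in 4. Erythroid markers summed to 34780 and 155500 against 139100 and 118300, with knockout replicate 1 the lowest array in 11 of 12 tested (1395 of all 7453). Liver markers summed to 802 and 849 in the knockout arrays and 1608 and 6559 in the wild-type arrays, with wild-type replicate 2 the highest, and albumin (Alb) read 488 and 360.0 against 840.2 and 4894. White fat markers summed to 1222 and 885.5 against 1239 and 1773. The part of these cells, and of the Gapdh and actin 3′ to 5′ ratios, in the respiratory chain values was not tested.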

How the data were processed

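Total RNA from 4 spleen samples, 2 knockout and 2 wild-type, was measured on 1-colour oligonucleotide arrays. The deposited values are linear intensities, 1 for each of 12488 probe sets, as the authors summarised them. How the authors scaled them, and with which software, is not given in the sources used here. Because the 2% trimmed means ran only from 2501.5 to 2502.0, the intensities were used as deposited. Array medians ran from 798.5 to 854.5.

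The 66 control probe sets were left out. Values under the pooled 25th percentile (185.5) were raised to it, log2 was taken, and the 7453 probe sets with a mean above the 40th percentile were tested, so folds of dim genes are understated. The floor and the filter use all 4 arrays. The test was that of limma 3.58.1 (R 4.3.3; lmFit, then eBayes with intensity trend and 5.88 prior degrees of freedom), two-sided, at an adjusted p of 0.05 (Benjamini-Hochberg, over the 7453). The steps were tested on simulated data. Symbols came from the platform annotation, which can be old. All 103 members matched the RefSeq gene table by identifier and kept their symbols.

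The members and gene lists were chosen with earlier results of these data known, so their counts are descriptions. Values in all arrays are given for the up to 6 tested probe sets of smallest p in each complex, for members with groups that do not overlap and a log2 difference of at least 0.8, for genes with several tested probe sets and for tissue isoforms. Other genes named with all array values were chosen after their values were seen: Ndufs1, Ndufs3, Ndufv1, Ndufa5, Ndufa8, Ndufs4, Uqcrc2, Cox5a, Cox6b1, Atp5a1, Atp5j and, among the markers, Prss2, Alb, Actc1, Myh4 and Tnnc2. Genes of the other mitochondrial lists are up to 3 examples of smallest p. Alternatives were 3 scalings (median centring, quantile, cyclic loess), the floor at the 40th percentile or log2 of the value plus 100, and no filter or a 60th percentile filter. Others were no intensity trend, a replicate block, each array left out, probe sets averaged by gene, and structural subunits only. A further one left out probe sets of the s, f, r, g and i types. These types mark probes that match several transcripts or a relaxed or incomplete probe choice.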

Additional observations from a re-analysis of the deposited data

How the results depend on the processing

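No member reached an adjusted p under 0.05 in limma under any alternative run, and in the largest count at an unadjusted p under 0.05, 37 members passed (34 lower), when wild-type replicate 2 was left out and 29.4% of all tested probe sets did. Over the arrays left out in turn this count ran from 0 to 37, and with wild-type replicate 1 left out it was 2 (Cox6a2 and Uqcr11). It was 1 as reported, 2 (Atp5e and Uqcr11) with median centring, quantile normalization, cyclic loess or the floor at the 40th percentile, and 4 with no filter (Cox5a, higher, and Ndufb2 joined these). The share of all tested probe sets that passed was 1.74% as reported and, in the same order, 1.73%, 1.8%, 1.72%, 1.82% and 2.73%. Members with a negative difference numbered 61 as deposited, 67 with median centring, 61 with quantile normalization and 64 with cyclic loess. They were 39 of 51 once probe sets marked for shared, relaxed or incomplete probe choice were left out. Leaving out 1 array at a time moved the median of complex I between -0.60 and -0.058, of complex II between -0.20 and 0.23, of complex III between -0.88 and 0.07 and of complex IV between -0.79 and 0.18, in each case past 0 or nearest to it without wild-type replicate 1, except complex II, which was positive without wild-type replicate 2. Over the same settings complex V ran from -0.34 to -0.01. Nfe2l2 lost its call with the floor at the 40th percentile (-3.30, adjusted p = 0.07332), with no filter (-4.61, adjusted p = 0.713) and without either wild-type array (-5.03 to -4.19 over all arrays left out), and its limma adjusted p ran from 1.576e-13 to 0.713 over all alternatives. These causes were not tested.

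Same-numbered arrays of the groups did not deviate together (correlation 0.04), so the labels' numbers were not taken as pairs. With the replicate number as a block, limma called 36 probe sets over the whole table in place of 4, none of them a member, and Uqcr11 was the 1 member at an unadjusted p under 0.05. The block left all 6 medians as reported: -0.34 for complex I, -0.11 for complex II, -0.47 for complex III, 0.072 for cytochrome c, -0.34 for complex IV and -0.16 for complex V.

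The sign of 18 named probe sets turned only without wild-type replicate 1: Atp5c1 (-0.10 to 0.34), Atp5d (-1.69 to 0.35 and -1.15 to 0.33 and -1.61 to 0.0384), Atp5k (-1.19 to 0.34), Atp5l (-0.16 to 0.50), Cox4i1 (-1.32 to 0.35), Cyc1 (-0.87 to 0.0271), Ndufa2 (-1.19 to 0.0238), Ndufa5 (-1.37 to 0.29), Ndufb2 (-0.69 to 0.0916), Ndufs1 (-0.27 to 1.16), Ndufs3 (-0.51 to 0.0699), Sdha (-0.22 to 0.51), Sdhaf1 (-0.95 to 0.0837), Sdhc (-0.15 to 0.94), Uqcr10 (-1.28 to 0.12) and Uqcrq (-0.999 to 0.0667), given as the lowest and highest difference over the arrays left out in turn. In 18 more it turned without another array, alone or as well: Atp5a1 (-0.34 to 0.22), Atp5c1 (-0.47 to 0.39), Atp5d (-0.17 to 0.25), Atp5j (-0.26 to 0.34), Atp5l (-0.39 to 0.0647), Cox6a2 (-0.0247 to 1.18), Cox6b2 (-1.60 to 0.45 and -1.27 to 0.60), Cox8b (-0.34 to 0.32), Cox8c (-0.30 to 0.22), Cyc1 (-0.0224 to 0.25), Cycs (-0.0305 to 0.17), Ndufa8 (-0.0218 to 0.42), Ndufv2 (-0.35 to 0.19 and -0.078 to 0.15), Sdhaf2 (-0.55 to 0.0269), Sdhd (-0.56 to 0.66) and Uqcrc2 (-0.0887 to 0.16). Median centring turned the sign of Atp5d (to -0.0189), Atp5j (-0.0196), Ndufv2 (-0.0249), Sdhd (-0.0066) and Uqcrc2 (-0.0253). Quantile normalization turned Atp5a1 (0.0618), Atp5d (-0.037) and Sdhd (-0.0121), and cyclic loess Atp5a1 (0.0641), Atp5d (-0.0248), Cycs (-0.0146) and Sdhd (-0.0065).

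The number of arrays, 2 in each group, limits all of these values. Of the members, 25 probe sets were not tested because their mean signal lay at or below the filter intensity of 468, so nothing is said of their direction beyond the values given.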
